A study of Mus musculus with 24 samples.

Results

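DNA methylation was described at 9 genes for factors that silence retroelements and keep imprints: Zfp57, Tasor, Zfp445, Trim28, Setdb1, Mphosph8, Pphln1, Morc2a and Daxx. Each gene was given the window of 1 kb on either side of whichever annotated gene end (build mm10) has more CpGs, and its level is the share of methylated calls over all calls in that window. All 9 windows passed the filter of 5 CpGs and 10 calls in every library, out of 20327 windows tested. Zfp57 and Tasor were set against the other 7 genes, called the constitutive members here.

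The knock-in (KI) cells were the miR-203 iPS cells, mouse induced pluripotent stem cells with a knock-in of the microRNA miR-203 that doxycycline switches on for a time, as the clones N5 and N9. Sampling was at t=0 before doxycycline, on day 10 (5 days after a pulse of 5 days), on day 25 (20 days after the pulse) and as embryoid bodies (EB), the aggregates in which such cells differentiate. They were set against wild-type (WT) iPS cells, counted as 1 library at each of the same stages. The 2 deposited columns of a WT stage carry replicate numbers, but the sources used here do not say whether they come from separate cultures. The treatment text is the same on all samples, WT included, and all iPS cells were grown over feeder cells. Each clone is a single cell line, so n = 2 counts clones, and the spread of the single WT library at a stage is assumed to be that of the clones. The WT embryoid bodies are labelled as 10 days of differentiation, whereas the series design gives 7 days.

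Methylation was read by oxidative bisulfite sequencing, in which 5-hydroxymethylcytosine is not counted as 5-methylcytosine. Mean coverage per CpG lay between 4.70 (WT at day 25) and 8.74 (N5 at day 25). N5 at t=0, at day 25 and as embryoid bodies was on another flow cell than the other 9 libraries. Over all CpGs the methylated share of calls was 64.7% and 64.8% at t=0, 60.04% and 60.7% on day 10, 48.4% and 47.7% on day 25, and 71.8% and 71.1% as embryoid bodies of N5 and N9. In WT cells it was 60.6%, 61.3%, 61.1% and 69.6% at the same 4 stages. The start of chromosome Y, read relative to chromosome 5, had a coverage of 0.0380 and 0.0392 in the clones at t=0, 0.00119 and 0.000872 on day 10, 0.0128 and 0.0106 on day 25, and 0.000893 and 0.000224 as embryoid bodies, against 0.000633 to 0.00185 in the 4 WT libraries. This coverage moved with the stage in KI cells, and its part in the results was not tested.

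KRAB zinc finger proteins bind DNA by sequence and recruit TRIM28 (also called KAP1), which brings the histone methyltransferase SETDB1 to lay down H3K9 methylation. ZFP57 and ZFP445 are the zinc finger proteins known for holding methylation at imprint control regions after fertilisation. TASOR, MPP8 (from Mphosph8) and periphilin (from Pphln1) form the HUSH complex, which spreads H3K9 methylation over retroelements and transgenes together with the ATPase MORC2 (Morc2a in the mouse). DAXX is a histone chaperone that, with ATRX, deposits the histone variant H3.3 at repeats.

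The strand given with the RefSeq start sites (build GRCm38.p6) showed that the windows did not all lie at the same kind of end. The windows of all 7 constitutive members lay at the annotated 5′ end, over 64 to 176 CpGs (Zfp445 at chr9:122885851-122887851, Trim28 at chr7:13023152-13025152, Setdb1 at chr3:95356202-95358202, Mphosph8 at chr14:56667235-56669235, Pphln1 at chr15:93397345-93399345, Morc2a at chr11:3648189-3650189 and Daxx at chr17:33908404-33910404). Those of Zfp57 (chr17:37009729-37011729, 31 CpGs) and Tasor (chr14:27482555-27484555, 13 CpGs) lay at the 3′ end. Over the 17278 genes with a known strand, 20.3% of windows lay at the 3′ end. The centre of the Zfp57 window is 11 bp from the annotated end of Mog, a myelin gene, and the Tasor window lies inside the span of the neighbouring gene Ccdc66. The RefSeq start of Tasor, at position 27428834, stands 5160 bp inside the annotated gene, so neither annotated end of Tasor takes it in. The single RefSeq start of Zfp445 likewise stands 20845 bp inside its annotated 5′ end, and the centre of its window is 33 bp from the annotated end of Zkscan7, another zinc finger gene. The Pphln1 window is centred 4 bp from an annotated end of Zcrb1. Those of Trim28, Mphosph8, Morc2a and Daxx also hold an end of another gene or pseudogene. The start regions, from 250 bases before to 50 bases after each RefSeq start, are therefore given as the sequence that the windows of Zfp57, Tasor and Zfp445 leave out, with Trim28 as an example of a constitutive member. Capitals mark the CpGs.

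Zfp57 first start, chr17:37000913-37001212, + strand, 6 CpGs: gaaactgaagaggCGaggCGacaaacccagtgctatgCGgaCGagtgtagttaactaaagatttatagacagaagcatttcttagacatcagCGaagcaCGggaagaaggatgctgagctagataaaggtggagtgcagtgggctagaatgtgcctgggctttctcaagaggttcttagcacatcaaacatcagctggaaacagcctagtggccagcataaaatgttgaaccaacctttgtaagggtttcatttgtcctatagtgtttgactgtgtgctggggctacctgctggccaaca
Zfp57 second start, chr17:37002275-37002574, + strand, 9 CpGs: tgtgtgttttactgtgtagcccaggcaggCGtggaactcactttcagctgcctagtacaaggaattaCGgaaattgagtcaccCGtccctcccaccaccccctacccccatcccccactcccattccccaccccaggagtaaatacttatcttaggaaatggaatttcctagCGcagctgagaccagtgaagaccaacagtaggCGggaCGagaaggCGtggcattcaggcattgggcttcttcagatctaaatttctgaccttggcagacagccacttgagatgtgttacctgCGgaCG
Zfp57 last start, chr17:37003416-37003715, + strand, 4 CpGs: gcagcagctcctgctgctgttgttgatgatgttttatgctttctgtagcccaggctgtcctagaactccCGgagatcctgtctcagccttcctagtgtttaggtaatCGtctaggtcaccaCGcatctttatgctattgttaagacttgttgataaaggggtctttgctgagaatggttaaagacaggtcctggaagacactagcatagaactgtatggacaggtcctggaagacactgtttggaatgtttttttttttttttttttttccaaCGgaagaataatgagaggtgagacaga
Tasor start, chr14:27428584-27428883, + strand, 32 CpGs: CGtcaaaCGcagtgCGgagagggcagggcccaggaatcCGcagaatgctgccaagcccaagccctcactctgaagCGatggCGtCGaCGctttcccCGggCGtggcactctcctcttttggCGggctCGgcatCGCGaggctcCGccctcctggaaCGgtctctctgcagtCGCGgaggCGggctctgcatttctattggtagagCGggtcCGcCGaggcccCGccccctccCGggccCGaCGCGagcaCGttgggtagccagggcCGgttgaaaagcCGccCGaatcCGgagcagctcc
Zfp445 start, chr9:122865957-122866256, - strand, 10 CpGs: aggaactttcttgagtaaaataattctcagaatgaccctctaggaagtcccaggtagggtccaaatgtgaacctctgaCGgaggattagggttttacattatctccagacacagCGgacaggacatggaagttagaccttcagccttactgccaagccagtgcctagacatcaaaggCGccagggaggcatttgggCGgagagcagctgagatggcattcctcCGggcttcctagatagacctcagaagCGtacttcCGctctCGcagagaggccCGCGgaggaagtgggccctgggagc
Trim28 start, chr7:13023902-13024201, + strand, 23 CpGs: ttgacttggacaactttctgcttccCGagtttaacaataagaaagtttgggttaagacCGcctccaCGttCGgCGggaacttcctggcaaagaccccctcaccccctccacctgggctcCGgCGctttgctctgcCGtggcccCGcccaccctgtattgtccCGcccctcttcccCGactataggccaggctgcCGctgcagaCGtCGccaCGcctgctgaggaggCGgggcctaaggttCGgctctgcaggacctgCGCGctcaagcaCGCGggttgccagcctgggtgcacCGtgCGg

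Over 32851 RefSeq start sequences of this length the median number of CpGs was 7. The sequences of Tasor and Trim28 hold more than that, and those of Zfp57 and Zfp445 are nearer to it. The CpGs shown for the second Zfp57 start were methylated in at most 1.43% of calls in any KI library and 2.38% in any WT library. At the Tasor start those limits were 0.980% and 0.935%, and at the Trim28 start no KI library exceeded 1.04%. The first Zfp57 start, which is also the annotated gene start, had 22.2% to 72.0% in KI libraries and 39.02% to 55.6% in WT libraries. The 4 CpGs of the last Zfp57 start had 0% to 25.9% in KI and 2.5% to 16% in WT libraries. In every single library, KI or WT, the first start stood above the last. Within 1 kb the level was 21.5% to 67.1% in KI and 34.5% to 54.9% in WT libraries at the first Zfp57 start, 0.960% to 5.26% in KI and 1.87% to 5.49% in WT libraries at the second Zfp57 start, and 1.05% to 9.29% in KI and 2.53% to 5.62% in WT libraries at the last. Within 1 kb of the Tasor start it was 0.511% to 3.66% in KI and 1.78% to 3.59% in WT libraries. The Zfp445 start had 2.11% to 12.3% in KI and 0% to 4.59% in WT libraries over the bases shown, and 18.4% to 31.3% in KI and 20.9% to 28.8% in WT libraries within 1 kb.

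At the 3′ end of Zfp57 the level was 44.7% in clone N5 and 37.6% in clone N9 before doxycycline (t=0), 27.5% and 39.0% on day 10, 15.3% and 9.68% on day 25, and 40.6% and 52.6% as embryoid bodies. In WT cells it was 35.1% (95% Wilson interval 29.6 to 41.0), 34.8% (29.7 to 40.3), 37.7% (31.7 to 44.2) and 30.3% (25.4 to 35.5) at the same 4 stages. The intervals cover counting error only, and rest on 228 to 314 calls. Both clones were lower at day 25 than every other KI library and than every WT library. At day 10 N9 was above WT and N5 below it.

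At the 3′ end of Tasor the level was 78.6% in clone N5 and 75% in clone N9 before doxycycline (t=0), 50.0% and 58.7% on day 10, 41.25% and 41.9% on day 25, and 89.3% and 80.3% as embryoid bodies. In WT cells it was 44.4% (32.8 to 56.7), 86.9% (76.2 to 93.2), 65.6% (53.4 to 76.1) and 77.8% (67.6 to 85.5), on 61 to 81 calls a library. The WT library at t=0 was thus far below the WT library at day 10, in the same order in each of its 2 deposited columns (42.5% and 47.8% at t=0, 80.0% and 91.7% at day 10). The clones were above WT at t=0 and below it at day 10 and day 25.

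The 7 constitutive members had lower levels than Zfp57 and Tasor at t=0 in KI cells, in windows at their annotated 5′ ends. Trim28, Mphosph8, Pphln1, Morc2a and Daxx did not exceed 2.80% in any KI library or 2.76% in any WT library. Trim28, the common corepressor, had 0 methylated calls of 935 in N5 on day 10, which allows a share of up to 0.321%, and at most 0.654% elsewhere. The partner zinc finger gene Zfp445 had 6.43% and 7.09% in N5 and N9 at t=0, 4.64% and 6.17% on day 10, 5.59% and 6.65% on day 25, and 23.7% and 14.1% as embryoid bodies, against 6.44%, 6.51%, 3.99% and 13.03% in WT cells. Its embryoid bodies stood above all iPS cell libraries in KI and WT cells alike. The methyltransferase gene Setdb1 had 12.2% and 10.1% at t=0, 16.4% and 10.96% on day 10, 10.8% and 14.5% on day 25, and 23.4% and 19.6% as embryoid bodies, against 23.97%, 10.0%, 18.7% and 12.5% in WT cells, where the order of the stages was another one.

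**Figure D1:**
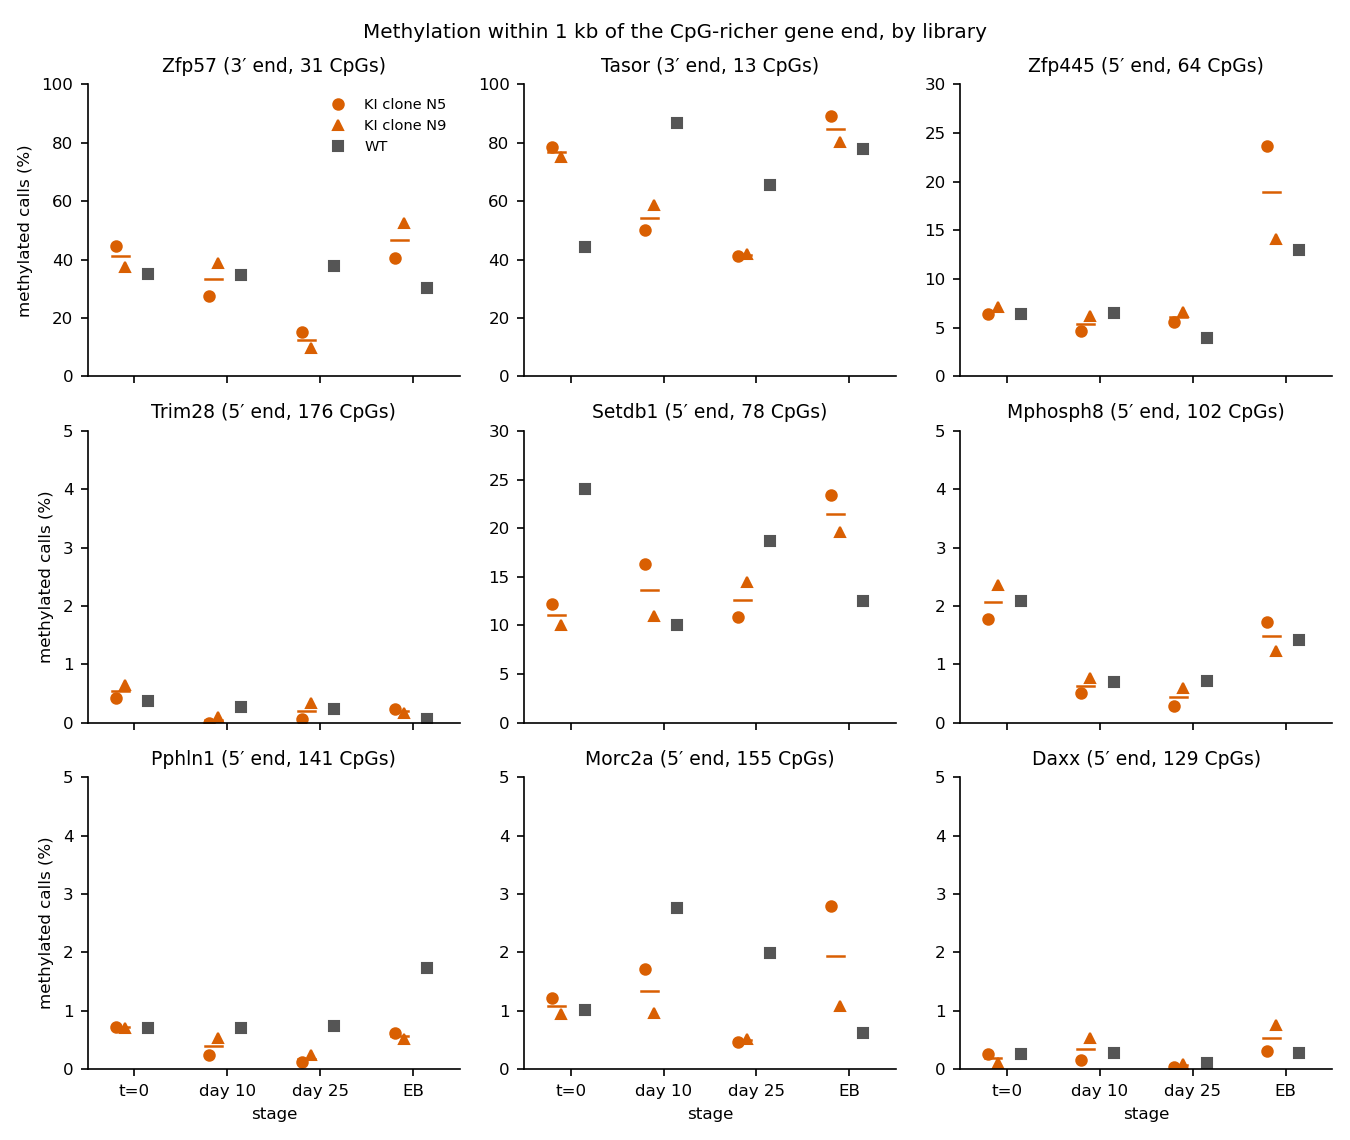
Methylated calls in percent within 1 kb of the gene end with more CpGs, for each of the 9 genes and 12 libraries, with KI clones N5 (circles) and N9 (triangles) and their mean (bar) left of the WT library (squares) at each stage; the scale of the vertical axis differs between genes. Zfp57 and Tasor, whose windows lie at the 3′ end, are lowest in both clones at day 25 (15.3% and 9.68%, 41.25% and 41.9%), while 5 of the constitutive members stay under 3% throughout.

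Changes between stages in the KI clones were tested with edgeR's quasi-likelihood test on methylated and unmethylated counts, adjusted over all 20327 windows, and are given in percentage points of the mean level. At day 10 against t=0, 0 of the 9 members passed at an adjusted p under 0.05, 3 had an unadjusted p under 0.05, and limma on logit levels also called 0. Over all windows 0.197% passed at an adjusted p under 0.05 in either direction in this comparison. The share at an unadjusted p under 0.05 was not worked out, so the count of 3 has no share to be set against. Zfp57 changed by -7.91 points with the 2 clones moving in opposite directions (-17.2 in N5 and 1.38 in N9), and Tasor by -22.4 (-28.6 in N5 and -16.3 in N9, adjusted p = 0.202).

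At day 25, 4 of the 9 members fell against t=0, where 40.2% of all windows fell. Zfp57 averaged 12.5% ± 3.95 at day 25 and 41.2% ± 5.03 at t=0 (SD, n = 2 each), a fall by 28.7 points (adjusted p = 0.000343) that was -29.4 in N5 and -27.9 in N9. Tasor averaged 41.6% ± 0.454 at day 25 and 76.8% ± 2.53 at t=0, a fall by 35.2 points (adjusted p = 0.00110) that was -37.3 in N5 and -33.1 in N9. The 2 clones ran on different flow cells at these stages, each with its own t=0, so the clone changes are also within-flow-cell values. The HUSH genes Mphosph8 (0.441% at day 25 and 2.06% at t=0, adjusted p = 0.00318) and Pphln1 (0.177% and 0.713%, adjusted p = 0.0393) passed with falls of 1.62 and 0.536 points. In WT cells Mphosph8 changed by nearly as much, from 2.08% at t=0 to 0.714% at day 25 (-1.37 points). Pphln1 changed by 0.0322 points in WT cells. At Mphosph8 the level was highest at the window edge, where 4 CpGs from -1000 to -751 bp had 35.1% at t=0 and 8.74% at day 25 in KI cells. Within 500 bp of its 5′ end no KI library at these 2 stages exceeded 0.389%. The call of Mphosph8 ended without N5 at day 25 (adjusted p = 0.0624), and that of Pphln1 ended without any 1 of the 4 libraries (adjusted p from 0.0656 to 0.268). Zfp445, Trim28, Setdb1, Morc2a and Daxx did not pass, with changes from -0.638 to 1.54 points. The median change was -0.588 points over the 9 members and -3.91 over all windows.

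In embryoid bodies against day 25, 7 of the 9 members rose, where 74.6% of all windows rose. Tasor averaged 84.8% ± 6.37 in embryoid bodies and 41.6% ± 0.454 on day 25, a rise of 43.2 points (adjusted p = 8.88e-06) that was 48.0 in N5 and 38.4 in N9. Zfp57 averaged 46.6% ± 8.48 in embryoid bodies and 12.5% ± 3.95 on day 25, a rise of 34.1 points (adjusted p = 3.46e-06) that was 25.3 in N5 and 42.9 in N9. Zfp445 rose by 12.8 points (18.1 in N5 and 7.49 in N9, adjusted p = 0.000284) and Setdb1 by 8.82 (adjusted p = 0.0286). Mphosph8, Morc2a and Daxx rose by 0.468 to 1.45 points, and Trim28 and Pphln1 did not pass, with 0.0102 and 0.387 points. Without N5 at day 25 or without N5 as embryoid bodies, 4 members passed.

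Between KI and WT cells at a given stage, 1 member passed in 1 of the 4 comparisons. At day 25 the 3′ end of Zfp57 was lower in KI cells, at 12.5% ± 3.95 against 37.7% in WT cells (-25.2 points, adjusted p = 0.00561), where 10.2% of all windows were lower. With N9 alone, which shared its flow cell with WT, the difference was -28.04 points (adjusted p = 0.0124). Tasor stood at 41.6% ± 0.454 in KI against 65.6% in WT cells at day 25 and did not pass (adjusted p = 0.0788). By edgeR 0 members passed at t=0, where 0.541% of all windows did in either direction, 0 at day 10 (0.0148%) and 0 in embryoid bodies (0.0886%). At an unadjusted p under 0.05 there were 2, 1 and 3 members at these stages, and the share of all windows at that threshold was not worked out. Limma called 0 members at each. Tasor differed by 32.3 points at t=0 and -32.5 at day 10 without passing (adjusted p = 0.104 and 0.142).

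The change between stages was compared between KI and WT cells in the same model. From t=0 to day 10 the difference in change at Tasor was -64.9 points, with -22.4 in KI cells (-28.6 and -16.3 in the clones) against 42.4 in WT cells (adjusted p = 0.0423). It was the single window of all 20327 that passed in this direction, 0.00492% of them. With the clones as a replicate block the adjusted p was 0.0624, with limma 0.300, and without 1 of 5 KI libraries (either clone at t=0, N5 on day 10, either clone as embryoid bodies) from 0.0658 to 0.209. With 1 of the 2 WT columns alone it was 0.137 or 0.112. From t=0 to day 25 the change differed at Tasor by -56.4 points (-35.2 in KI against 21.2 in WT cells, adjusted p = 0.0305) and at Zfp57 by -31.3 (-28.7 in KI against 2.64 in WT cells, adjusted p = 0.0452). This was 2 of 9 members, where 2.11% of all windows passed in this direction. Leaving out N5 at t=0, or either clone at day 25, ended both calls (adjusted p from 0.0509 to 0.102), leaving out N9 at t=0 ended that of Zfp57 (0.0575), and limma called neither (0.107 and 0.122). From day 25 to embryoid bodies Zfp57 differed by 41.6 points (34.1 in KI against -7.46 in WT cells, adjusted p = 0.00548) and Morc2a by 2.82 (1.45 in KI against -1.37 in WT cells, adjusted p = 0.0374), where 6.07% of all windows passed in this direction. The Morc2a level was highest at the window edge, in 9 CpGs from 750 to 999 bp. There KI cells had 1.68% at day 25 and 28.4% in embryoid bodies, and WT cells 35.5% (31 calls) and 8.47% (59 calls). Within 500 bp of the Morc2a 5′ end no library exceeded 0.466%. The Morc2a call ended without either clone at day 25 or without N5 as embryoid bodies (adjusted p from 0.0671 to 0.113).

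The level of Zfp57 or Tasor minus the mean of the constitutive members, taken within each library, moved almost as much as the gene itself. The constitutive mean was 3.29% and 3.13% in N5 and N9 at t=0, and 2.49% and 3.27% on day 25. It had little room to fall, so the difference had to follow a fall of Zfp57 or Tasor. For Zfp57 this difference was 12.8 and 6.41 points in N5 and N9 on day 25, against 41.4 and 34.5 at t=0, a change of -28.4. For Tasor it was 38.8 and 38.6 points at day 25, against 75.3 and 71.9 at t=0, a change of -34.9. In embryoid bodies against day 25 the changes were 30.6 points for Zfp57 and 39.6 for Tasor. At day 10 against t=0 they were -7.82 for Zfp57, with 24.1 and 36.1 points in N5 and N9 at day 10 against 41.4 and 34.5 at t=0, and -22.3 for Tasor. With 2 libraries against 2, the two-sided exact permutation test cannot give a p below 0.333. It gave 0.333 in each case except Zfp57 at day 10 (exact permutation p = 0.667).

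Because these windows set 3′ ends against 5′ ends, the same fit was run with all genes at the same kind of end, a choice made after the data had been seen. A gene with several RefSeq starts was given the one with the most CpGs within 1 kb, which for Zfp57 is the second. At these starts (16061 windows with a start in the reference table) Zfp57 averaged 1.02% ± 0.0817 at day 25 and 3.35% ± 0.917 at t=0 in KI cells (-2.33 points, adjusted p = 0.0209). Around the first Zfp57 start, read in the same model with each gene at its end with fewer CpGs, the level was 22.4% ± 1.23 at day 25 and 54.8% ± 6.25 at t=0 (-32.4 points, adjusted p = 3.63e-05), so the small change at Zfp57 belongs to the start chosen. Tasor averaged 1.30% ± 1.12 at day 25 and 3.17% ± 0.703 at t=0 (-1.87 points, adjusted p = 0.0295), with -3.15 in N5 and -0.580 in N9. In WT cells the Tasor start changed by -1.45 points and the second Zfp57 start by -0.0707. Together with Mphosph8 and Pphln1, Zfp57 and Tasor were the 4 of 9 members that fell, where 35.9% of all start windows fell, and the median over all start windows was -3.05 points. Limma called 3 of 9, and 4530 of all 16061 start windows in either direction. Zfp445 had the largest change of the 9 starts without passing (-7.68 points, adjusted p = 0.144). In embryoid bodies against day 25, 6 of 9 starts rose, Tasor not among them (0.967 points, adjusted p = 0.103), where 73.5% of all start windows rose. Between KI and WT cells at day 25, 1 of 9 starts was lower, that of Morc2a (-1.82 points, adjusted p = 0.0427), where 9.61% of all start windows were lower. Its window takes in the 9 edge CpGs of Morc2a named above, with 1.68% in KI and 35.5% in WT cells at day 25. By limma 0 of the 9 starts passed in this comparison, against 893 of all 16061 start windows in either direction.

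At 3′ ends (15809 windows) the constitutive members were methylated as well, apart from Daxx. In KI cells at day 25 all 9 members were lower than at t=0, where 77.8% of all 3′ windows were. The changes were -35.3 points for Pphln1, -35.2 for Tasor, -29.9 for Mphosph8, -28.7 for Zfp57, -27.9 for Trim28, -20.6 for Setdb1, -14.8 for Morc2a, -13.3 for Zfp445 and -4.06 for Daxx, with adjusted p from 9.90e-06 to 0.0277. The median was -27.9 points over the members and -18.3 over all 3′ windows. Pphln1, for example, stood at 44.2% and 38.9% in N5 and N9 on day 25, against 75.5% and 78.2% at t=0, and at 71.0% in WT cells at day 25. Daxx had the lowest 3′ level, at 1.54% and 0.231% at day 25 against 2.39% and 7.50% at t=0, over 75 CpGs. That window also holds an annotated end of Zbtb22, 586 bp from its centre. The 3′ windows of Setdb1 and Trim28 hold ends of Cers2 (74 bp from the centre) and Chmp2a (974 bp), so these levels are shared with other genes.

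In embryoid bodies all 9 members were higher than at day 25 at their 3′ ends, where 93.9% of all 3′ windows were, by 5.95 points at Daxx to 43.2 at Tasor. Against WT cells at day 25, 8 of 9 members were lower in KI cells, Morc2a being the exception (-15.1 points, adjusted p = 0.181), where 28% of all 3′ windows were lower. Limma called 4 of the 9 members, and 2330 of all 15809 3′ windows in either direction. From t=0 to day 10, 1 of 9 members, Tasor, had a lower change in KI than in WT cells (-64.9 points, adjusted p = 0.0415), where 0.0127% of 3′ windows passed in this direction. From t=0 to day 25 the change was lower in KI than in WT cells at 7 of 9 members, all but Setdb1 and Morc2a, where 24.3% of 3′ windows were. Limma called 1 member, and 531 of all 15809 3′ windows in either direction. From day 25 to embryoid bodies the change was higher in KI than in WT cells at 5 of 9 members (Zfp57, Trim28, Setdb1, Pphln1 and Daxx), where 15.1% of 3′ windows were. Limma again called 1 member, and 417 of all 15809 3′ windows in either direction.

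Set against the constitutive members at the same kind of end, the changes of Zfp57 and Tasor were smaller. At 3′ ends the difference between Zfp57 and the constitutive mean was -29.3 and -34.5 points in N5 and N9 on day 25, against -19.5 and -28.6 at t=0, a change of -7.85. That between Tasor and the constitutive mean was -3.29 and -2.33 points at day 25, against 14.4 and 8.78 at t=0, a change of -14.4. At RefSeq starts these changes were -0.987 points for Zfp57, at its second start, and -0.519 for Tasor. The exact permutation p was 0.333, the smallest possible, in the first 3 of these cases and 0.667 in the last.

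**Figure D2:**
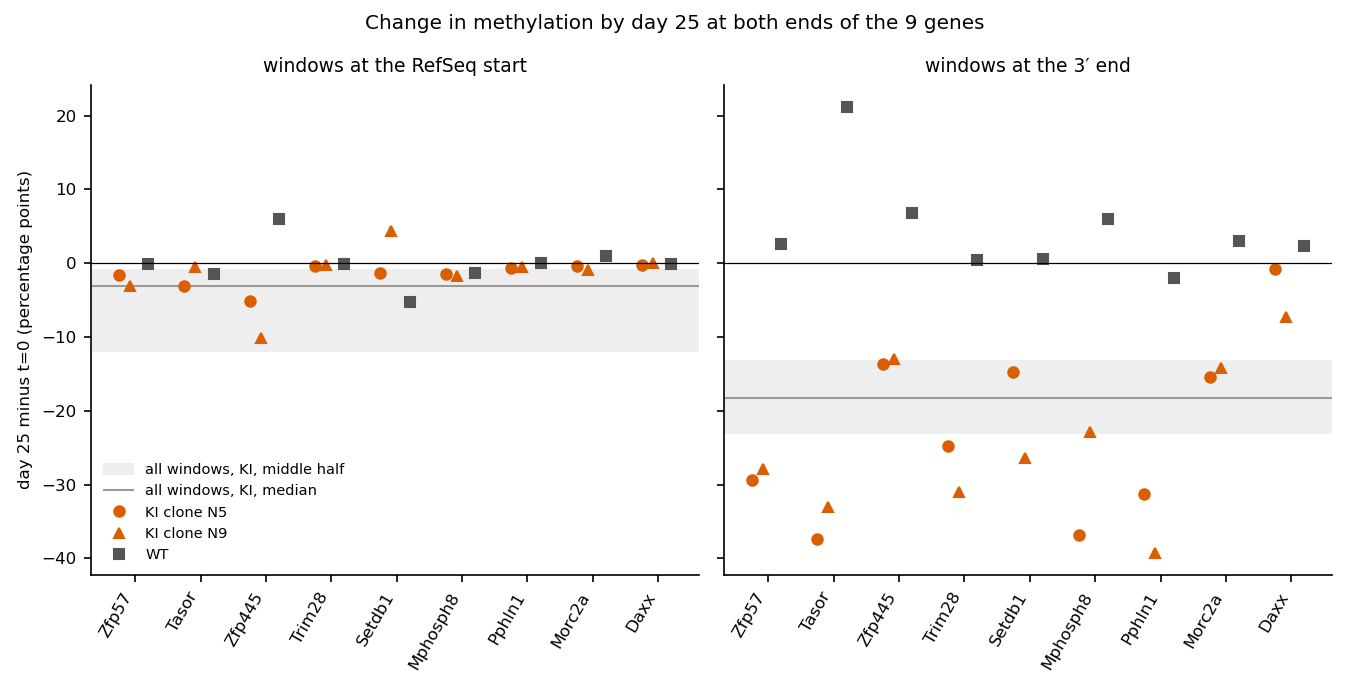
Change in methylation from t=0 to day 25, in percentage points, at the RefSeq start with the most CpGs (left) and the 3′ end (right) of the 9 genes, for KI clones N5 (circles) and N9 (triangles) left of WT (squares); the line and the grey band are the median and the middle 50% of all windows of that kind in KI cells (-3.05 and -18.3 points for the medians). All 9 genes are lower in both clones at the 3′ end, whereas 8 of 9 starts changed by less than 3 points on average.

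Along Zfp57 the methylation level had a trough. In bins of 500 bp, the bins centred 1250 and 1750 bp inside the annotated gene start, the first of which holds the second RefSeq start, had 15 and 35 CpGs and at most 1.64% methylation in KI cells and 3.28% in WT cells at any stage. The bin before the annotated start had 65.0% at t=0, 58.3% on day 10, 24.8% at day 25 and 71.8% in embryoid bodies of the KI clones pooled, against 56.25%, 51.3%, 36.0% and 55.3% in WT cells. The KI level at day 25 was below that at t=0 in 22 of the 23 bins with 10 or more calls in both, the exception being the bin at 1750 bp in the trough. Over the whole body, without the outer 1 kb, Zfp57 had 11.5% and 9.94% in N5 and N9 on day 25, against 24.7% and 29.5% at t=0, and 23.1% in WT cells at day 25.

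Tasor had an unmethylated island of 127 CpGs in the 2 kb bin that holds its RefSeq start, with 0.0466% methylation in KI cells at day 25 against 0.396% at t=0, and 0.287% in WT cells at day 25. Over its body, without the outer 1 kb, Tasor had 30.6% and 32.1% in N5 and N9 on day 25, against 46.5% and 47.6% at t=0, and 51.6% in WT cells at day 25. Body levels of the other 7 genes were lower at day 25 than at t=0 in both clones as well, from 13.8% at Daxx to 59.1% at Morc2a, both in N9, at day 25.

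**Figure D3:**
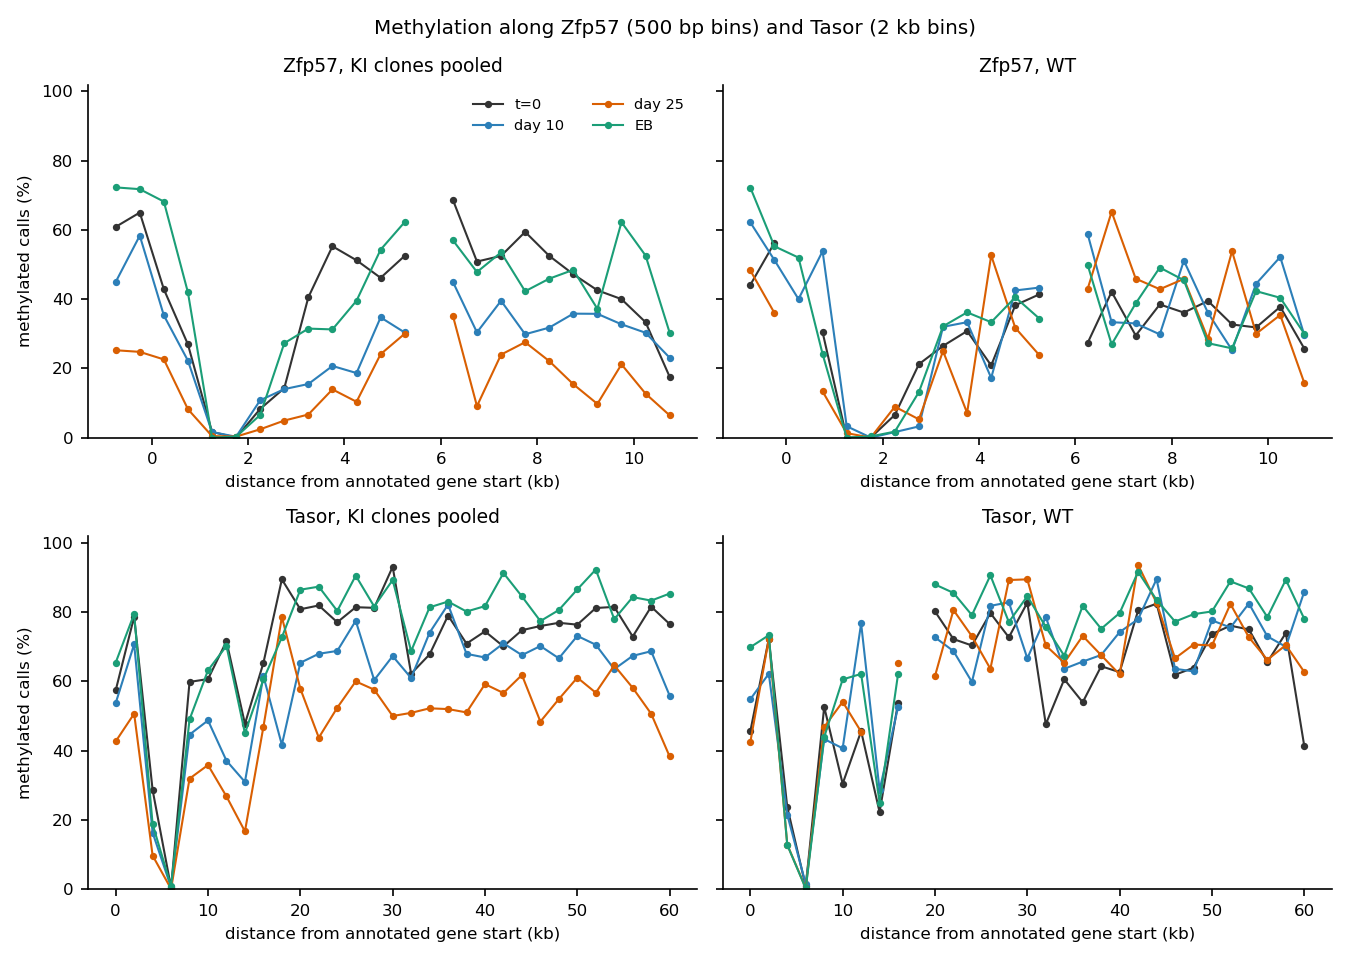
Methylated calls in percent along Zfp57 (bins of 500 bp, top) and Tasor (bins of 2 kb, bottom) by distance from the annotated gene start, in the pooled KI clones (left) and in WT cells (right) at 4 stages; bins with fewer than 10 calls are left out. The level has a trough near 0% in all stages at and after the second RefSeq start of Zfp57 and at the RefSeq start of Tasor, and the KI line for day 25 lies below that for t=0 over most of the remaining gene.

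At single CpGs of the 3′ end of Zfp57, 30 of 31 had at least 5 calls in KI cells at t=0 and day 25. All 30 were lower at day 25, by a median of 27.3 points, and all 30 with such coverage were higher in embryoid bodies than at day 25, by a median of 35.4. Of 23 CpGs covered in both KI and WT cells at day 25, 20 were lower in KI cells and 2 higher. At the 3′ end of Tasor 7 of 13 CpGs could be compared, and all 7 were lower at day 25 than at t=0 (median -47.9 points). In embryoid bodies 6 of 7 CpGs with such coverage were higher than at day 25 and 1 was lower (-33.3 points). In WT cells the 6 CpGs that could be compared at Tasor were all higher at day 10 than at t=0, by 2.86 to 90.0 points. Neighbouring CpGs share reads and are not independent.

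**Figure D4:**
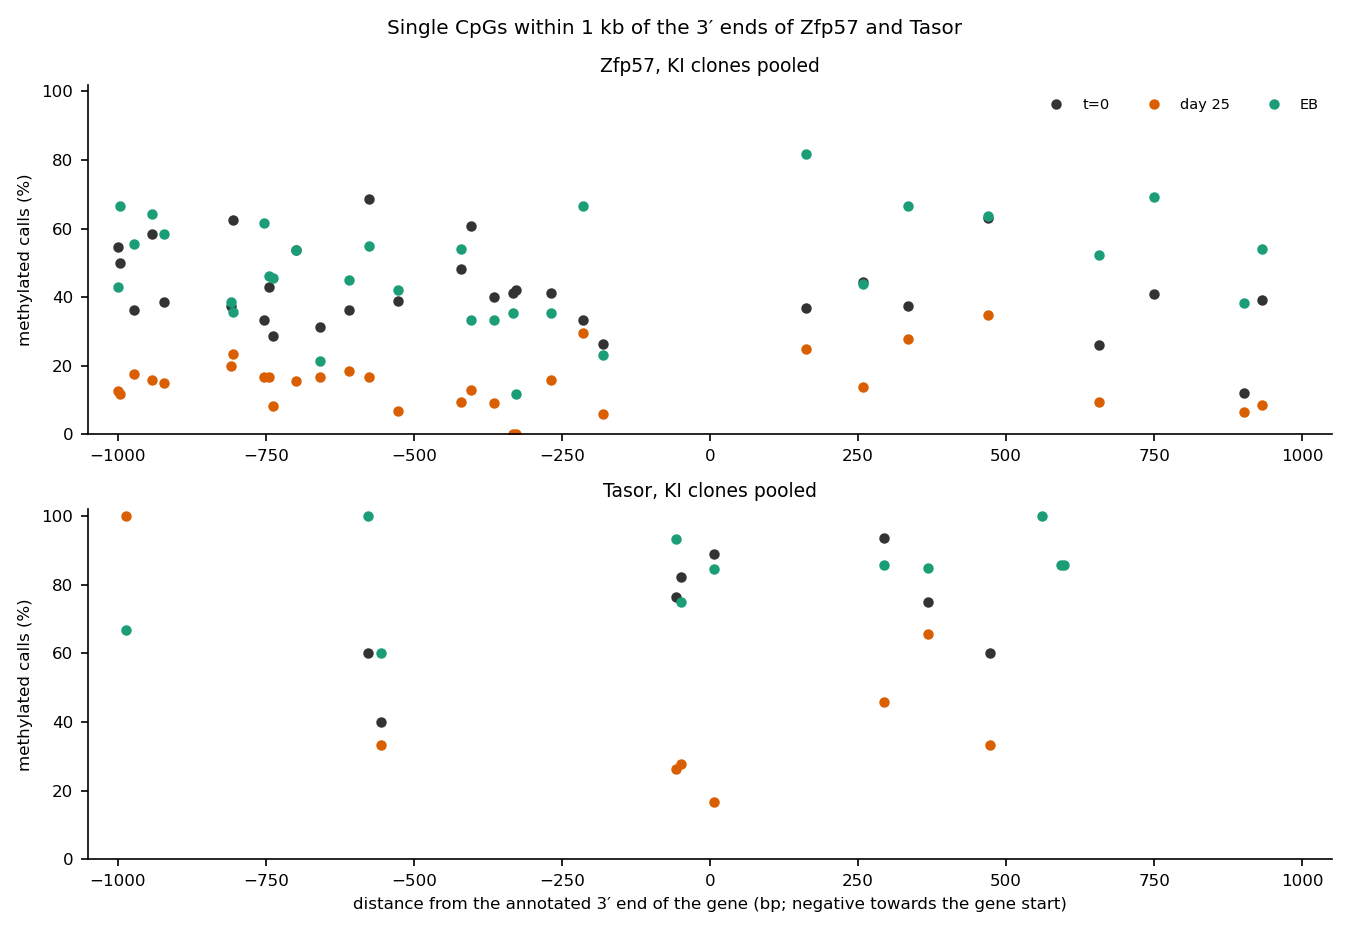
Methylated calls in percent at single CpGs within 1 kb of the annotated 3′ ends of Zfp57 (top) and Tasor (bottom) in the pooled KI clones at t=0, day 25 and in embryoid bodies, by distance from the gene end; CpGs with fewer than 5 calls are left out. At Zfp57 the day 25 points lie below those for t=0 at all 30 CpGs compared, and at Tasor at all 7.

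The 5′ windows of Zfp445 and Setdb1 were not uniform. At Zfp445 the 35 CpGs of the 250 bp before the annotated 5′ end had 1.66% methylation in KI embryoid bodies and 0.178% in KI cells at t=0. The 10 CpGs in the bin from -500 to -251 bp, upstream of that end, had 27.7% in KI embryoid bodies, on 83 calls, against 0 of 76 calls at day 25, which allows up to 3.95%, and 2.5% at t=0. In WT cells that bin had 4.84% in embryoid bodies, on 62 calls, and 1.96% at t=0. The 5 CpGs from 250 to 499 bp on the other side of that end had 63.4% in KI embryoid bodies, on 82 calls, 25% at day 25, on 128, and 51.4% at t=0, on 72, against 57.4% in WT embryoid bodies, 40% at day 25 and 51.9% at t=0. Single bins were not tested. At Setdb1 the methylated calls came mostly from 2 CpGs in the bin from -1000 to -751 bp, with 89.6% in KI embryoid bodies, 74.1% at day 25 and 77.4% at t=0, and 82.6% in WT embryoid bodies. The 13 CpGs in the 250 bp before the start of Setdb1 had 0 methylated of 137 calls in KI embryoid bodies, which allows up to 2.19%. Its window pools these CpGs by coverage, so its percentage moves with how many calls fall on each.

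**Figure D5:**
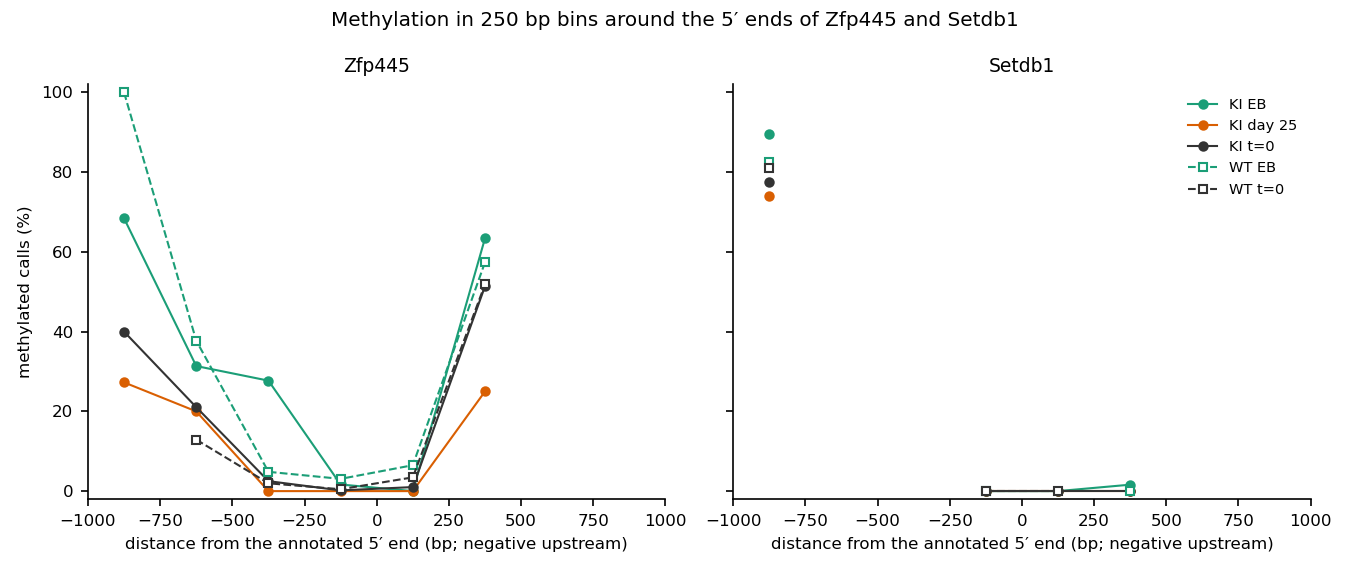
Methylated calls in percent in bins of 250 bp around the annotated 5′ ends of Zfp445 (left) and Setdb1 (right), for KI embryoid bodies, KI day 25, KI t=0, WT embryoid bodies and WT t=0; bins with fewer than 10 calls are left out. At Zfp445 the bin from -500 to -251 bp stands at 27.7% in KI embryoid bodies and at most 4.84% in the other groups drawn, and at Setdb1 the bins next to the 5′ end are at or near 0%.

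Genes that work with these factors were read by the same rule in 3 lists. Of 30 H3K9 and heterochromatin partners, 10 fell at day 25 against t=0 in KI cells and 0 rose, where 40.2% of all windows fell (median -0.981 points, against -3.91 over all windows). In embryoid bodies against day 25, 18 rose, where 74.6% of all windows did (median 1.64 points, against 7.22). Both counts are below the share over all windows. The germline silencing gene Morc1 stood at 17.3% and 12.3% in N5 and N9 on day 25, against 41.9% and 47.2% at t=0 (adjusted p = 0.000199). The HUSH paralogue gene Tasor2 fell by 25.04 points (adjusted p = 0.000653), Cbx1 (the heterochromatin protein HP1 beta) by 6.85 and H3f3b (histone H3.3) by 29.8. The H3f3b window lies at the 3′ end, over 12 CpGs, and those of Tasor2 and Cbx1 at the 5′ end. For Morc1 the kind of end is unknown. In embryoid bodies Morc1, H3f3b and Tasor2 were among the 18, with rises of 22.1 to 40.3 points. Against WT cells at day 25, 5 of 30 were lower, where 10.2% of all windows were, with the lowest adjusted p at Hells, a chromatin remodeller needed for DNA methylation, at 0.855% and 0.901% against 7.02% in WT cells (adjusted p = 0.00404). Morc1, Tasor2 and Atrx followed, by -23.9, -24.7 and -7.59 points. At t=0 Hells had 2.87% and 1.69% in N5 and N9 and 2.85% in WT cells, so its WT level was higher at day 25 than at t=0. The change from t=0 to day 25 differed at 1 of 30, Morc1 (-29.1 points, adjusted p = 0.0486), where 2.11% of all windows passed in this direction. That from day 25 to embryoid bodies differed at 4 of 30, Atrx, Hells, Sumo2 and Cbx1 (3.48 to 10.97 points), where 6.07% did.

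A list of 16 zinc finger genes was drawn up as KRAB genes with known targets, but it also holds Zfp42 (the pluripotency marker Rex1), a relative of YY1 without a KRAB domain. Of the 16, 7 fell at day 25 against t=0, where 40.2% of all windows fell (median -5.01 points, against -3.91), and 11 rose in embryoid bodies, where 74.6% did (median 4.17, against 7.22), both near the share over all windows. Zfp42 fell by 8.20 points at day 25 (adjusted p = 0.00300), followed by Zfp93, Zfp708 and Zfp874b with falls of 14.4 to 17.2. Against WT cells at day 25, 2 of 16 were lower, Zfp93 and Zfp42 (-19.09 and -9.19 points), where 10.2% of all windows were. In embryoid bodies Zfp708, Zfp874b, Zfp809, a repressor of murine leukaemia virus elements, and Zfp617 rose by 2.51 to 23.8 points. The change from day 25 differed from WT at 1 of 16, Zfp809 (6.61 points, adjusted p = 0.0464), where 6.07% of all windows passed in this direction.

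Of 26 genes beside imprint control regions, the loci that ZFP57 and ZFP445 are known to protect, 12 fell at day 25 against t=0, where 40.2% of all windows fell (median -8.69 points, against -3.91), and 19 rose in embryoid bodies, where 74.6% did (median 10.1, against 7.22). These counts too are near the share over all windows. The maternally methylated Peg3, its neighbour Usp29, Gnas and Nap1l5 fell by 5.21 to 16.8 points at day 25 (adjusted p from 0.00207 to 0.00693). Peg3 and Usp29 had nearly the same level in every library (28.0% and 28.4% in N5 at t=0), so they may not be separate observations. In embryoid bodies Cdh15, Gnas, Fkbp6 and Airn rose by 8.35 to 31.8. Against WT cells, 1 of 26 was higher at t=0, where 0.541% of all windows passed in either direction. At day 25, 1 was higher and 4 were lower, where 10.2% of all windows were lower. In embryoid bodies 1 was higher and 2 were lower, where 0.0886% of all windows passed in either direction. A few of these loci passed at more than 1 stage. H19 had 69.6% and 72.6% in N5 and N9 at t=0, 79.0% and 70.5% on day 10, 64.7% and 65.9% on day 25, and 87.9% and 78.8% as embryoid bodies, against 37.2%, 42.3%, 33.7% and 50.2% in WT cells. It was higher in KI cells at t=0, on day 25 and as embryoid bodies (33.9, 31.6 and 33.2 points, adjusted p = 0.0156, 0.00638 and 0.0154).

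Kcnq1ot1 had 32.1% and 17.1% in N5 and N9 at t=0, 24.3% and 13.2% on day 10, 12.6% and 9.15% on day 25, and 15.6% and 24.01% as embryoid bodies, against 45.5%, 52.3%, 52.4% and 64.7% in WT cells. It was lower in KI cells at day 25 and in embryoid bodies (-41.6 and -44.9 points, adjusted p = 0.000292 and 0.0124), as was Snurf (-40.9 and -39.2 points, adjusted p = 0.00131 and 0.0271). At H19, Kcnq1ot1 and Snurf the KI and WT libraries did not overlap at any stage, t=0 included. Snurf had 11.05% to 26.96% in KI libraries and 38.3% to 61.3% in WT libraries. The share of all windows with such a gap was not determined, so the gap is not shown to be unusual. Airn and Nap1l5 were lower at day 25 as well, by -18.4 and -15.4 points. The changes from day 25 to embryoid bodies differed from WT at Gnas (9.38 points) and Peg10 (-19.4 points, adjusted p = 0.0426). This was 1 higher and 1 lower of 26, where 6.07% of all windows were higher.

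By mean absolute difference in level over the 12 libraries, the gene end most like that of Zfp57 was Mog, at 0.483 points, whose window is nearly the same stretch of DNA. It was followed by Kctd4 (2.65), Muc13 (3.82), Hpn (3.96) and Eid3 (4.06). The ends most like Tasor were Olfr1121 (5.46), Krt81 (5.83), Mgst2 (5.95), Olfr102 (6.06) and Foxi1 (6.14).

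The cell labels were set beside 2 lists of marker genes, by their median level at gene ends. The 8 pluripotency genes had 19.9% and 13.7% at t=0, 16.4% and 11.7% on day 10, 4.70% and 3.99% on day 25, and 16.2% and 21.2% as embryoid bodies of N5 and N9, against 18.1%, 16.5%, 16.9% and 8.71% in WT cells. The 10 fibroblast genes had 6.44% to 12.1% in KI iPS cells and 26.2% and 21.8% in KI embryoid bodies, against 7.55% to 10.8% and 24.05% in WT cells. Methylation at these genes does not show their expression, and the labels could not be checked further here.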

How the data were processed

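The deposited table gives, per the file headers, methylated-call counts and coverage per CpG, as whole numbers made by the authors from oxidative bisulfite reads of 12 libraries (24 samples, 2 lanes each). The reads were aligned with BWA to mm10 and handled with Picard 1.91, per the submitters' processing notes, with no methylation caller named there. The 2 WT columns of a stage are numbered as replicates, per the file headers, whereas the labels give the 2 WT samples of a stage the same index and flow cell on different lanes, and neither says whether they are separate cultures. They differed by less than the sampling noise (mean chi-square per CpG 0.946 to 0.954, against 1.06 to 1.10 between clones) and were summed as 1 library. All 32 value columns matched a sample. Calls totalled 102896335 to 191210205 per library, and low coverage per CpG is the reason for pooling calls within windows.

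Counts of methylated and unmethylated calls were tested with edgeR 4.0.16 (quasi-likelihood F-test, 8 groups, 4 residual degrees of freedom, Benjamini-Hochberg over 20327 windows, threshold 0.05), with limma 3.58.1 on logit levels as an alternative, in R 4.3.3. On simulated data for KI day 25 against t=0 (20327 windows, 200 of them changed), 95% of changed windows were recovered and 2.56% of calls were false. The changed windows were drawn only from those of intermediate level and high coverage, with 1 size of change. The rates therefore do not cover the Tasor window, with its few calls, or members near 0%. In the real data 40.2% of windows fell, a far larger share than was simulated. The clone numbers pair the KI samples, since each clone is 1 cell line across stages, although the deviations of the clones hardly correlated between stages (-0.0325 to 0.0204). Clone numbers entered as a replicate block in an alternative, as did the flow cell, other windows, other coverage minima and leaving out each KI library. All 9 members are named, and from each list at most the 4 genes of lowest p per comparison and direction, of which 1 is not reported here. The members and lists were chosen with earlier results of these data known.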

Additional observations from a re-analysis of the deposited data

Results flagged for a closer look

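These results are listed because the change between stages differed between KI and WT cells by the test of that difference (edgeR, adjusted over all windows of that kind). At the gene end with more CpGs, Tasor differed by -64.9 points from t=0 to day 10 (adjusted p = 0.0423) and by -56.4 from t=0 to day 25 (0.0305). Zfp57 differed by -31.3 points from t=0 to day 25 (0.0452) and by 41.6 from day 25 to embryoid bodies (0.00548), and Morc2a by 2.82 from day 25 to embryoid bodies (0.0374).

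At the 3′ end the change from t=0 to day 25 differed by -6.41 points at Daxx (adjusted p = 0.0205), -35.9 at Mphosph8 (0.0274), -33.3 at Pphln1 (0.0166), -28.2 at Trim28 (0.0343) and -20.2 at Zfp445 (0.0342). From day 25 to embryoid bodies it differed there by 6.73 points at Daxx (0.0263), 31.2 at Pphln1 (0.0251), 26.3 at Setdb1 (0.0410) and 39.6 at Trim28 (0.0103). WT has 1 library at each stage, so its part in these differences rests on single libraries.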

How the results depend on the processing

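The number of members called depended on the window and on single libraries, and the causes were not tested. The share of all windows called depended on the window too, so these counts are not results about the members alone. For the fall by day 25 it was 40.2% at the CpG-richer end and 77.8% at 3′ ends. For KI below WT at day 25 it was 10.2% and 28%. For 500 bp and 2 kb windows, the other end, single WT columns and fits without 1 library it is not given here. At day 25 against t=0 in KI cells (4 called), 500 bp windows gave 2, 2 kb windows 7, the other gene end 8, 3′ ends 9, and leaving out 1 KI library 2 to 4. In embryoid bodies against day 25 (7 called), 500 bp windows gave 3 and leaving out 1 library 4 to 8. Between KI and WT cells, 500 bp windows gave 1 at t=0 (0 called), and at day 25 (1 called) 2 kb windows gave 5, the other end 6, the second WT column alone 2 and 3′ ends 8. For the change from t=0 to day 10 (1 called), limma, the replicate block with or without the flow cell, 2 kb windows, the other end, either WT column alone and RefSeq starts gave 0, and leaving out 1 library 0 to 1. For t=0 to day 25 (2 called), limma and RefSeq starts gave 0, either WT column alone 1, 2 kb windows 6, the other end 5, 3′ ends 7 and leaving out 1 library 0 to 2. For day 25 to embryoid bodies (2 called), limma, 500 bp windows, the second WT column alone and RefSeq starts gave 1, 2 kb windows 5, the other end 4, 3′ ends 5 and leaving out 1 library 1 to 2.

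With the replicate block, the Tasor call for the change from t=0 to day 10 was lost (adjusted p = 0.0624, and 0.104 with the flow cell), and the block changed no other call among the member results. Zfp57 minus the constitutive members at day 10 against t=0 was -17.3 to 1.64 points without 1 clone, turning sign without N5, and Tasor minus the constitutive members in embryoid bodies against day 25 was -2.36 at RefSeq starts. The direction also turned, in the level or in the fitted odds, for Morc2a in 500 bp windows (0.0209 points in embryoid bodies against day 25, and 0.0209 for its change against WT). For Zfp57 against WT it turned at t=0 with block and flow cell (6.08 points) and at day 10 in 500 bp windows (4.73), with the first WT column (5.41) and without N5 at day 10 (4.13, against -7.34 without N9). For Tasor against WT it turned at t=0 at RefSeq starts (-0.426), at the other end at day 25 (-0.0707), in embryoid bodies (-4.56) and for the change from day 25 (-4.49), and in embryoid bodies with block and flow cell (7.01). None of these turned values passed the test. The Tasor window rests on 13 CpGs and 56 to 81 calls per library.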
